A study of Homo sapiens with 4 samples.

Results

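Clathrin-mediated endocytosis is described here at the level of alternative splicing, through 7 genes: CLTA and CLTB (the clathrin light chains), PICALM, NUMB, ITSN1, BIN1 and DNM2. The genes were fixed by name, and every skipped-exon event that the authors' deposited table lists under those symbols was taken. All 7 genes had events, 38 of the 31408 in the table, on 33 of its 27483 unique exons. A skipped-exon event is a cassette exon together with a given pair of flanking exons, so an exon can be listed more than once.

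The libraries came from HEK293T, a human embryonic kidney cell line. There were 2 wild-type (WT) clones and 2 RBFOX2 knockout (RBFOX2 KO) clones. All 4 had been transfected with PX459, a Cas9 plasmid, and with pgRGFP carrying guides to either side of RBFOX2, and each was expanded from a single sorted cell and genotyped by PCR. Each library is therefore 1 clone, and the WT clones carry the same transfection history as the knockouts. RBFOX2, titled RBM9 in the labels, is a splicing factor that binds the RNA form of GCATG. The comparison was meant to supply exons that respond to RBFOX2 for use beside crosslinking maps of its binding.

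The authors' deposited table gives for each event the inclusion level of a first set of libraries minus that of a second set, where the inclusion level is the length-scaled share of junction reads that contain the exon, from 0 to 1. Neither the header nor the labels say which set is WT, so every difference below is first set minus second set and none is a gain or loss on knockout. The columns of junction counts and inclusion levels per library name no clone or genotype and were not used, so read depth per event, the spread within each set and a replicate SD were not analysed here. The table lists 0 events for RBFOX2, so the knockout was not checked on its own transcript.

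Clathrin-coated vesicles form when adaptors bound to membrane lipids and cargo recruit clathrin, whose light chains sit on the heavy-chain lattice. PICALM binds lipid and clathrin and helps to shape the coat, NUMB links cargo receptors to it, and ITSN1 is a scaffold that gathers the other factors. BIN1 bends membrane through its BAR domain, and DNM2, a GTPase, cuts the bud from the membrane. Many of these proteins have tissue-specific forms made by cassette exons, mainly in brain and muscle.

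The exons on which the results turn are printed here 5′ to 3′ as in GENCODE 29 transcripts, with positions in hg19. They comprise the called exons of NUMB, DNM2 and BIN1, the 12-nt exons 14 and 18 of DNM1, the BIN1 neighbour and 3 PICALM exons. Capitals mark GCATG where it occurs and, in the 150-nt PICALM exon, the 5′ bases that its shorter form lacks. Each lies wholly within the coding sequence of an annotated transcript.
NUMB 33-nt exon, chr14:73783098-73783130, minus strand: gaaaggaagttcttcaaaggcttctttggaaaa
DNM2 12-nt exon, chr19:10919245-10919256, plus strand: ggggagatcctg
DNM1 12-nt exon 14, chr9:131002264-131002275, plus strand: gatgagattctg
DNM1 12-nt exon 18, chr9:131010203-131010214, plus strand: gacaaagagaaa
BIN1 129-nt exon, chr2:127815049-127815177, minus strand: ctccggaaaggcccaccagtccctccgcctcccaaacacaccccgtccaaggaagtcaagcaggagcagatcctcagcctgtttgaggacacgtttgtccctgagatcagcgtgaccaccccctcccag
BIN1 90-nt exon, chr2:127808730-127808819, minus strand: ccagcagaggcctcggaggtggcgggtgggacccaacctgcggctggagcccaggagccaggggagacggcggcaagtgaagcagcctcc
PICALM 24-nt exon, chr11:85689113-85689136, minus strand: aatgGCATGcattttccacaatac
PICALM 60-nt exon, chr11:85687666-85687725, minus strand: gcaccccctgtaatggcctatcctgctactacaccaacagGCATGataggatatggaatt
PICALM 150-nt exon, chr11:85701293-85701442, minus strand: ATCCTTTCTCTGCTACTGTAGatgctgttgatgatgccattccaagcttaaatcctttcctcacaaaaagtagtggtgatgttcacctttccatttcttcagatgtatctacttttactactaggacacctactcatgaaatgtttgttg

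An exon of NUMB, an exon of DNM2 and an exon of BIN1 differed between the sets, and no exon of PICALM, CLTA, CLTB or ITSN1 did at the threshold used. An event was called where its false discovery rate (FDR) was under 0.05 and its difference reached 0.1 in either direction, both as listed in the authors' deposited table. This gave 3 of the 38 events (7.89%), against 5.15% of all events. By exon it was 3 of 33 (9.09%) against 5.73%, and by gene 3 of 7 against 13.7% of the genes in the table. The share by gene also depends on the events per gene, with 38 events in 7 genes here and 31408 in 9172 genes of the table. The 7 genes were chosen with earlier results of these data known. With 3 calls these shares are a description only. The second set had the higher inclusion for the NUMB and BIN1 exons (2.38% of all events were called in that direction) and the first set for the DNM2 exon (2.77%). All 3 called exons were fully coding and had a length divisible by 3, so that their skipping keeps the reading frame.

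**Figure D1:**
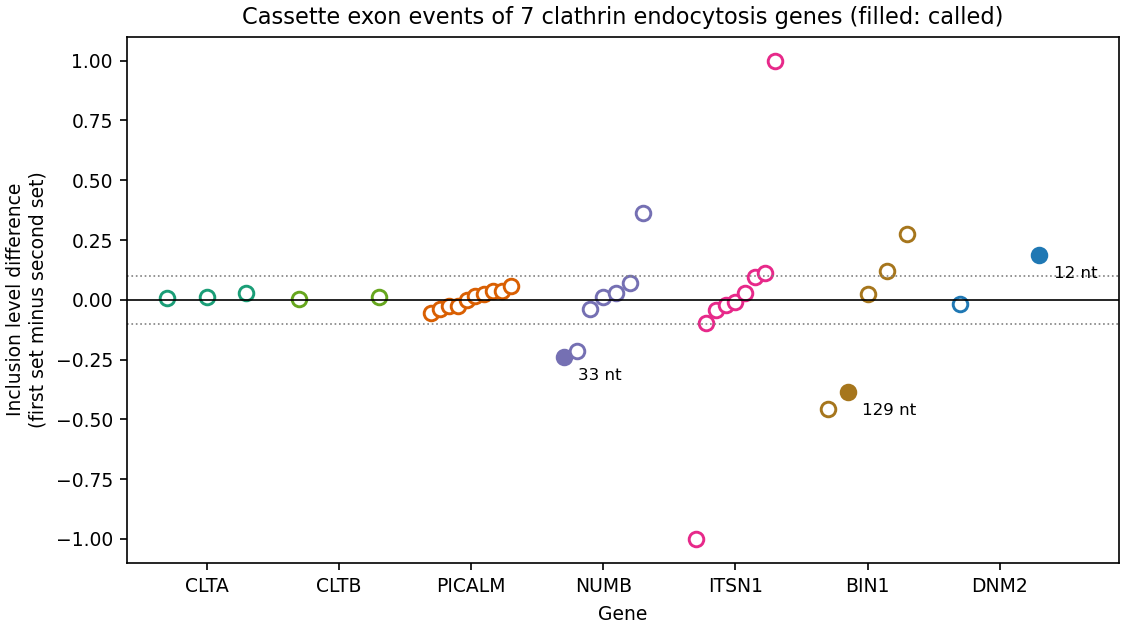
Inclusion level difference (first set minus second set, no unit) of each of the 38 events, by gene. Filled points are called events, labelled with exon length, and dotted lines mark a difference of 0.1 in either direction; PICALM, CLTA and CLTB events all lie between those lines, while NUMB, ITSN1 and BIN1 events spread beyond them on both sides.

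NUMB, the cargo adaptor (ENSG00000133961), had 7 events on 7 exons. The strongest call among the members was its 33-nt exon, exon 3 of 10 in the transcript NUMB-201, which adds 11 codons to the phosphotyrosine-binding domain that contacts cargo. The authors' deposited table gave this exon a difference of -0.24 with a p-value of 3.44e-15 and an FDR of 2.12e-12. By p-value its rank was 51 of 31408 events. Its size was below the median of 0.272 over all 1619 called events (quartiles 0.178 and 0.421), and 454 called events had a larger difference in the same direction. The exon lies between introns of 6.71 kb (5′) and 19.1 kb (3′), and each flanking exon is 75 nt long. GENCODE 29 joins it to exactly these flanks in 10 transcripts and also holds a junction of the length that skips it. GCATG did not occur in its 33 bases, and the introns beside it were not searched for GCATG.

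The remaining NUMB exons gave no call. In its 5′ UTR an 85-nt exon (chromosome 14, 73833605 to 73833689, minus strand) was listed in the authors' deposited table at -0.213, with a p-value of 0.0121 and an FDR of 0.144. This size is near that of the 33-nt exon, and the FDR was over the limit. The 144-nt exon (73745989 to 73746132), exon 9 of 10 in NUMB-201, which lengthens the proline-rich part of the protein by 48 codons, stood at 0.364 in the authors' deposited table, where its p-value was 1. This was the largest difference listed for the gene, of opposite sign to that of the 33-nt exon, and it came with no statistical support. Its 5′ flank is the 147-nt exon (73749067 to 73749213), a cassette in its own right, which the authors' deposited table listed at 0.072 with a p-value of 1. For the exons of 75, 132 and 294 nt the authors' deposited table listed 0.028, 0.01 and -0.037, each with a p-value of 1. The 75-nt exon is the 3′ flank of the 33-nt exon. Its event uses the junction that skips the 33-nt exon, so the differences of these exons are not independent of each other. Of the NUMB exons, 5 were fully coding, all of them divisible by 3, and the 294-nt exon was the only matched NUMB exon with a GCATG.

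DNM2, the scission GTPase (ENSG00000079805), had 2 events. Its 12-nt exon, exon 14 of 21 in DNM2-201, inserts 4 codons beside the lipid-binding pleckstrin homology domain. The first set was higher by 0.189 in the authors' deposited table, at a p-value of 0.000201 and an FDR of 0.00561. It was the shortest exon among the members, and it stands between introns of 2.6 kb and 3.68 kb. Its inclusion form has an effective length (the number of read positions that can count) of 106 nt, and the skipping form one of 94 nt. The other DNM2 event, a 68-nt exon (chromosome 19, 10906048 to 10906115), had -0.018 at a p-value of 1 in the authors' deposited table.

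The neuronal dynamin DNM1 is not among the 7 genes and was on the list of other pathway genes, and it carries 2 exons of 12 nt. Exon 14 of 23 in DNM1-201 follows a 52-nt exon, as the DNM2 exon does, and shares 9 of its 12 bases. Counted from 1 at the 5′ end with the DNM2 base first, the differences are G2A, G3T and C9T. The authors' deposited table listed this DNM1 exon at 0.062 with a p-value of 0.0647 and an FDR of 0.502, so the DNM1 exon most like that of DNM2 was not called. The other one, exon 18 of 23, shares 2 of 12 bases with the DNM2 exon. The authors' deposited table put exon 18 at 0.488, with a p-value of 1.14e-09 and an FDR of 1.95e-07. GENCODE 29 holds no DNM1 junction of the length that skips exon 18. The called 12-nt exons of DNM1 and DNM2 thus differ in place and in sequence, and the first set was higher for both.

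BIN1 (ENSG00000136717), which binds and bends membrane, had 5 events on 3 exons, all fully coding and divisible by 3. A pair of neighbouring cassettes made up 4 of the events. In transcript order these are an exon of 145 nt, the 129-nt cassette, the 90-nt cassette and an exon of 111 nt. The 129-nt cassette belongs to the region that binds clathrin and the adaptor AP2, which marks the brain forms of the protein; the 90-nt cassette belongs to the region known for binding MYC. With the 145-nt and 111-nt exons as flanks, the 129-nt cassette was called, at -0.387 in the authors' deposited table (p-value 0.00176, FDR 0.0328). With the 90-nt cassette as its 3′ flank, the same exon was listed in the authors' deposited table at -0.455 with a p-value of 1.

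Both listings of the 129-nt cassette had the same sign, and the larger difference was the one with no support. GENCODE 29 joins it to the 145-nt and 90-nt exons in 3 transcripts and to the flanks of the called event in 0 transcripts. The 90-nt cassette had differences above 0 and no call. After the 129-nt exon, the authors' deposited table put it at 0.274 with a p-value of 0.0107 and an FDR of 0.132. With the 145-nt exon as its 5′ flank, the authors' deposited table gave 0.025 with a p-value of 0.23. That value is not limited to transcripts without the 129-nt cassette. Both events of the 90-nt cassette count the junction from it to the 111-nt exon. These 4 events share junctions, so their differences are not independent of each other. The 93-nt exon (chromosome 2, 127825739 to 127825831), exon 7 of 19 in BIN1-202, is a brain-associated insert in the BAR domain. The authors' deposited table put it at 0.122, with a p-value of 0.0163 and an FDR of 0.182.

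**Figure D2:**
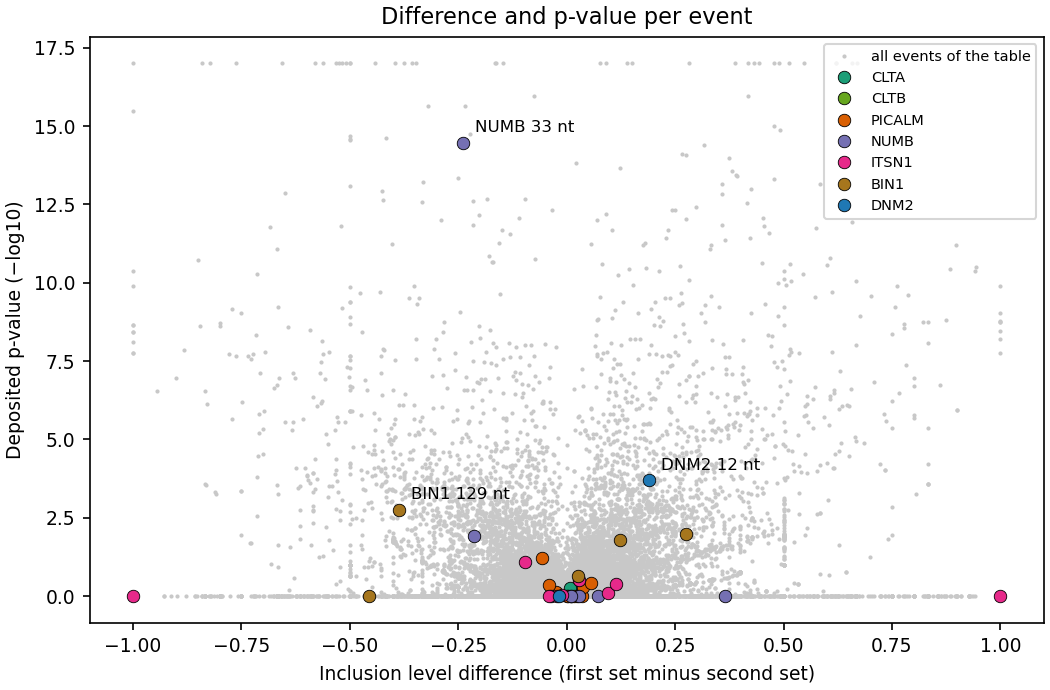
Inclusion level difference (x axis, first set minus second set) against the deposited p-value as −log10 (y axis) for the 38 events in colour and all events of the table in grey; the 38 events of the table listed with a p-value of 0 are drawn at 17. The NUMB 33-nt exon stands far above the other coloured points, and both ITSN1 events at the edges, with differences of 1 and -1, lie on the floor of the plot.

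PICALM (ENSG00000073921), the adaptor that helps to assemble the coat, had the most events, 10 on 10 exons, and the narrowest spread among genes with more than 3 events. In the authors' deposited table its differences ran from -0.057 to 0.056, and 0 of 10 passed even the minimum difference of 0.1. The lowest p-value, 0.0588 with an FDR of 0.469, went in the authors' deposited table to the 24-nt exon, which had the most negative difference of the gene. This 8-codon exon holds GCATG inside the palindrome GCATGC. Of the 225 matched exons of at most 24 nt in the table it was the only one with that element. The next exon in the transcript, of 60 nt, also holds a GCATG, as did 84 of 2559 matched exons of 25 to 60 nt (3.28%). In the authors' deposited table the value for this exon was -0.024, and its p-value 0.81. Its event uses the junction that skips the 24-nt exon, so the differences of these exons are not independent of each other. A match to these letters within an exon is a description and not a binding site.

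Further 5′ in PICALM the same exon is listed in a 150-nt and a 129-nt form that share their 3′ end. They differ by the 21 bases printed in capitals above. The authors' deposited table put the longer form at 0.056 (p-value 0.377) and the shorter at -0.025 (p-value 0.728). The signs were opposite, and neither form was called. Both events use the same skipping junction and the same 3′ junction, so their differences are not independent of each other. A 126-nt exon (chromosome 11, 85734459 to 85734584) was listed at -0.04 with a p-value of 0.438 in the authors' deposited table. The other 5 exons, of 76, 100, 103, 105 and 108 nt, had differences from 0 to 0.038 in the authors' deposited table. Of the 10 PICALM exons, 7 were fully coding and 6 of these divisible by 3.

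The light chains had the smallest differences. CLTA (ENSG00000122705) had 3 events, on exons of 38 nt (chromosome 9, 36197548 to 36197585, plus strand) and 118 nt (36198976 to 36199093). The 38-nt exon was listed in the authors' deposited table at 0.01 with the 118-nt exon as its 3′ flank and 0.027 without it, at p-values of 1 and 0.618. For the 118-nt exon the authors' deposited table has 0.008 with a p-value of 0.563. The 38-nt exon is coding with a length not divisible by 3, so its skipping shifts the frame, and GENCODE 29 has a junction of the length that skips both exons. CLTB (ENSG00000175416) had 2 events. Its 54-nt exon (chromosome 5, 175823480 to 175823533, minus strand), which encodes the 18-codon insert of the brain form of the light chain, was listed in the authors' deposited table at 0.01 with a p-value of 1. A 552-nt exon (175833158 to 175833709) had 0.003 at a p-value of 1 in the authors' deposited table. With both flanking introns of that event, it matched GENCODE 29 only in a transcript annotated for nonsense-mediated decay.

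ITSN1 (ENSG00000205726), the scaffold, had 9 events on 7 exons and no call. A pair of adjacent exons near its 5′ end were each listed with different flanks. The 62-nt exon (chromosome 21, 35061627 to 35061688, plus strand) had 0.029 with a p-value of 0.294 in the authors' deposited table when joined to a 60-nt exon. Joined to its 125-nt neighbour, it was listed in the authors' deposited table with a difference of 1 and a p-value of 1. The 125-nt exon (35088736 to 35088860), in the 5′ UTR of ITSN1-219, had -0.096 in the authors' deposited table (p-value 0.0804, FDR 0.588). With the 62-nt exon as its 5′ flank, the authors' deposited table listed it at -1 with a p-value of 1. The differences of 1 and -1 are the extremes of the scale and carry no statistical support, and the reads behind them were not analysed here.

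The other ITSN1 exons lay within or just beyond the minimum difference. A 46-nt exon (35199122 to 35199167) and a 167-nt exon (35195791 to 35195957), which is its 5′ neighbour, had 0.114 and 0.095 in the authors' deposited table with p-values of 0.416 and 0.798. Exons of 64, 83 and 248 nt had -0.023, -0.01 and -0.041 in the authors' deposited table. None of the 7 ITSN1 exons had a length divisible by 3, against 6 of 7 for NUMB, 7 of 10 for PICALM and 3 of 3 for BIN1.

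Of the 38 events, 11 (28.9%) reached the minimum difference of 0.1 in the authors' deposited table, as did 31.5% of all its events, and 8 of the 11 were not called. The median absolute difference was 0.0375 over the 38 events and 0.048 over all events. An unadjusted p-value under 0.05 was listed for 6 of the 38 events (15.8%) and for 12% of all events in the authors' deposited table. A p-value of 1 was listed for 47.4% and 51.4%. The first set was higher in 22, the second in 15, and 1 event was at 0.

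**Figure D3:**
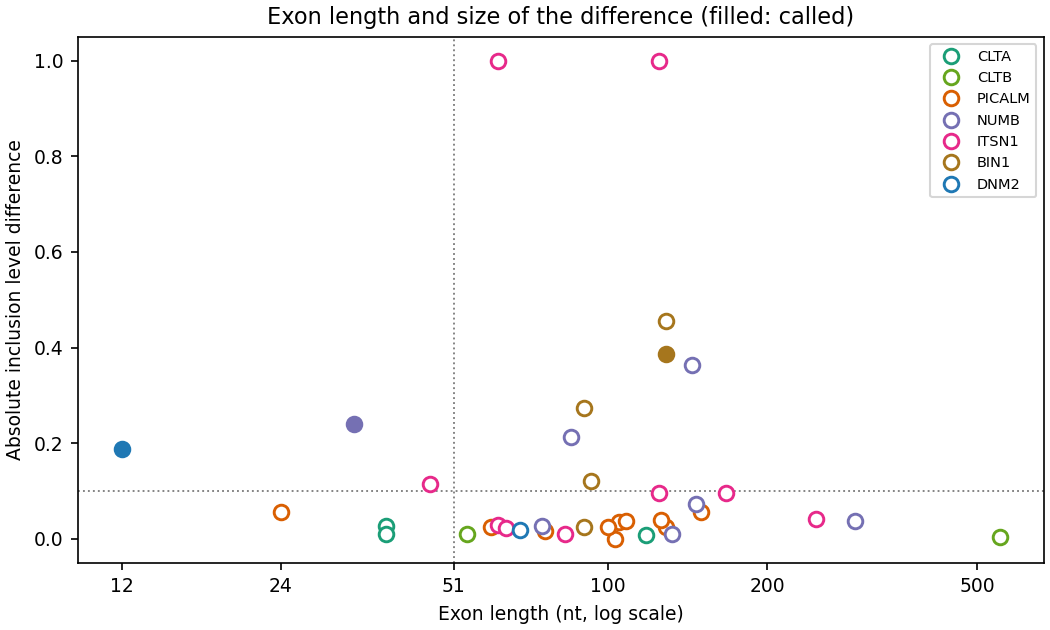
Absolute inclusion level difference (y axis) against exon length (x axis, nt, log scale) for the 38 events, with called events filled and dotted lines at 51 nt and at a difference of 0.1. Of the 5 exons of at most 51 nt, the DNM2 12-nt and NUMB 33-nt exons were called and the PICALM 24-nt, CLTA 38-nt and ITSN1 46-nt exons were not.

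The structure of the exons is given beside that of the whole table. The median exon length was 100 nt, against 117 nt over all 27483 exons. There were 5 of 33 (15.2%) with a length up to 51 nt, against 7.2% overall. In 19 of 33 exons (57.6%) the length was a multiple of 3, against 40.7% overall. A match to GENCODE 29 by gene, exon length and both intron lengths was found for 27 of 33 exons (81.8%) and for 90.1% overall. Of the matched exons 21 were fully coding (77.8%, against 66.1%), and 16 of these 21 were divisible by 3 (76.2%, against 46.3%). GCATG occurred in the transcript sequence of 3 of the 27 matched exons (11.1%) and of 11.6% of all matched exons. Introns were not searched for GCATG, for the called exons or any other. No test was made of these shares, and the exons of a gene are not independent.

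The median flanking intron was 6.25 kb on the 5′ side and 3.98 kb on the 3′ side, against 2.25 kb and 2.1 kb over all events. The longest was the 73.7 kb intron 5′ of the 125-nt ITSN1 exon, and the shortest the 241-nt intron 3′ of the 90-nt BIN1 cassette. A flanking exon was itself listed as a cassette in 19 of 38 events (50%), against 33.4% of all events. The called exons were not alike in this respect, with 5′ introns of 1.41 kb for BIN1, 2.6 kb for DNM2 and 6.71 kb for NUMB.

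**Figure D4:**
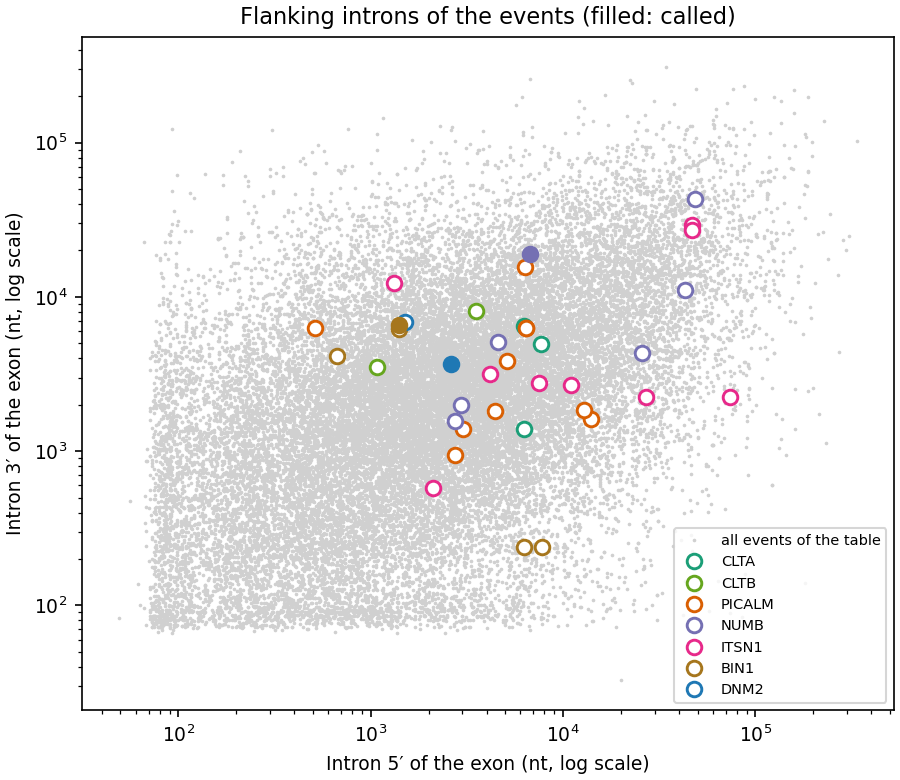
Length of the intron 5′ of the exon (x axis) and 3′ of the exon (y axis), both in nt on log scales, for the 38 events in colour (called events filled) and all events of the table in grey. ITSN1 and NUMB events reach the upper right, with long introns on both sides, and the BIN1 90-nt cassette lies lowest at 241 nt.

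Among the wider clathrin machinery, calls were found in lipid enzymes, a dynamin, a membrane-bending protein and an uncoating kinase, and in 0 of 88 events of the coat and its clathrin adaptors. The list held 63 other genes, of which 51 had events, 196 in all, and 6 events in 6 genes were called (3.06%, against 5.15% of all events). The first set was higher in 4 and the second in 2. The median absolute difference was 0.047. The coat and adaptor group had a median absolute difference of 0.03, the smallest of the 6 groups, and the 20 events of cargo adaptors also had 0 calls.

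The strongest call of this list was in GAK, a kinase and auxilin relative that helps strip clathrin from vesicles. Its 62-nt exon (chromosome 4, 907395 to 907456), in a transcript annotated for nonsense-mediated decay, was at 0.417 in the authors' deposited table (FDR 8.72e-14). For PIP5K1B, an enzyme that makes the lipid to which adaptors bind, a 157-nt 5′ UTR exon (chromosome 9, 71357417 to 71357573) was at 0.5 in the authors' deposited table (FDR 1.04e-08). Its relative PIP5K1C had an 84-nt coding exon (chromosome 19, 3633435 to 3633518) that the authors' deposited table put at -0.155 (FDR 0.0327). FNBP1, an F-BAR protein that curves membrane, had a 153-nt coding exon (chromosome 9, 132686123 to 132686275) that the authors' deposited table put at -0.503 (FDR 8.95e-06). SYNJ1, a phosphatase that removes the adaptor-binding lipid during uncoating, had a 268-nt coding exon (chromosome 21, 34072148 to 34072415) that the authors' deposited table put at 0.112 (FDR 0.043). The sixth call was exon 18 of DNM1. For the SYNJ1 exon, as for exon 18 of DNM1, GENCODE 29 holds no junction of the length that skips it.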

How the data were processed

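RNA was extracted with Trizol and ribosome-depleted before stranded sequencing, per the labels' protocols. The submitters' processing notes name STAR 2.7.3a and hg19. The single deposited table has the header of rMATS skipped-exon output from junction counts; the rMATS version and annotation are not given in the sources used here. Per the file headers, the authors deposited a p-value and an FDR per event (the FDR equals a Benjamini-Hochberg adjustment over all 31408 events, largest gap 1.11e-16), an inclusion level difference, and effective lengths. The difference was read as first minus second set, the rMATS convention. The 6 columns of values per library match no clone and were not used, so no count model was run. Starts were converted to 1-based.

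Exons were matched to GENCODE 29 by gene, exon length and both intron lengths, without coordinates. An exon passed as fully coding if a protein-coding transcript's coding sequence spanned it. The members and lists were chosen with earlier results of these data known. Values are given for called events, the 3 lowest p-values per gene and differences of at least 0.3; others were named after their values were seen. The code that applies the call rule was checked on simulated data, which says nothing of the deposited p-values. Alternatives were FDR limits of 0.01 and 0.1, Bonferroni, minimum differences of 0 and 0.2, and unique exons. Python 3.11.15, pandas 2.3.3, numpy 2.4.6 and matplotlib 3.10.9 were used.

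Each clone was a separate library; how the deposited p-values weigh the spread between clones against read counts is not given in the sources used here. Exons of 1 of the 7 genes lay within that gene's GRCh38.p14 bounds, and no coordinates of that build are printed.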

Additional observations from a re-analysis of the deposited data

How the results depend on the processing

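The NUMB 33-nt exon stayed called under each of the alternatives run: FDR limits of 0.01 and 0.1, Bonferroni correction over the table, and minimum differences of 0 and 0.2. The BIN1 129-nt event, at a difference of -0.387, was lost at an FDR under 0.01 and under Bonferroni. The DNM2 12-nt event, at 0.189, was lost under Bonferroni and at a minimum difference of 0.2. Bonferroni correction left 1 called event among the 38 and 472 in the whole table; the stricter limit accounts for this by construction. The number of called events among the 7 genes was otherwise 2 or 3, and that of the wider pathway list ranged from 4 to 9 against 6. No other named event of the 7 genes gained or lost a call.

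No paired analysis was possible because no column names a clone or its number. Leaving out each clone was not run, since the columns per library were not used, so whether 1 library carries the NUMB, DNM2 or BIN1 difference was not tested. Depth per event was likewise not analysed here.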

Other observations

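Exons of exactly 12 nt, the length of the DNM2 insert, were looked at across the table after the DNM2 value was seen. There were 23 such exons, and 4 of them (17.4%) were called, against 5.73% of all exons. The share was also above that of all exons at the other lengths counted. It was 17% of the 47 exons of 24 nt, 11.5% of the 78 of 33 nt and 8.44% of the 154 of 60 nt. Exons of 38 and 46 nt, lengths also found among the 7 genes, were not counted. Of the 1619 called events in the whole table the first set was higher in 871, and it was higher for all 4 called 12-nt exons. Beside DNM2 and DNM1 these were an exon of STX16, a syntaxin of the trans-Golgi network, and an exon of TEAD2, a transcription factor of the Hippo pathway. The authors' deposited table put the STX16 exon (chromosome 20, 57234679 to 57234690) at 0.502 (FDR 5.29e-06). The authors' deposited table put the TEAD2 exon (chromosome 19, 49859216 to 49859227) at 0.259 (FDR 0.0115). With 4 calls, of which DNM2 prompted the look, and a length chosen after the fact, no test was made.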
